A study of Mus musculus with 4 samples.

Results

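The genes described here are 10 genes of the integrated stress response and the unfolded protein response: the transcription factor genes Atf3, Atf4, Ddit3 and Xbp1, the inhibitor gene Trib3, the effector genes Chac1, Sesn2 and Asns, and the endoplasmic reticulum (ER) genes Hspa5 and Herpud1. They were taken by name, and all 10 were found among 21887 protein-coding genes. Around them, counting each gene body and 10 kb to each side, 20 of the 67299 open regions seen in the series were collected. The assay was ATAC-seq, whose transposase cuts accessible DNA, on dissected paraventricular nucleus (PVH), a hypothalamic centre of energy balance and hormone release, and the question was whether loss of the homeodomain factor Otp leaves less open chromatin near its targets. The mice were 12 weeks old and all had the genotype Otp fl/fl; Ai14, that is, Otp alleles flanked by loxP together with a Cre-dependent fluorescent reporter. Controls had been injected as adults with AAV-GFP (2 libraries) and the other group, to delete Otp, with AAV-Cre (2 libraries), and tissue was taken 4 weeks later. The labels name neither the viral promoter, the number of animals behind a library, the share of cells infected nor any sorting of nuclei, and the Otp exons flanked by loxP are not stated. Since separate animals are not recorded either, the spread between libraries may be technical.

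The unfolded protein response begins when misfolded proteins in the ER draw the chaperone BiP, encoded by Hspa5, away from the sensors PERK, IRE1 and ATF6. PERK phosphorylates the initiation factor eIF2, which slows translation in general but favours that of ATF4; other eIF2 kinases feed the same step when amino acids or haem run short, hence the name integrated stress response. ATF4 turns on amino acid and redox genes and, with its partner CHOP (Ddit3), the later genes of prolonged stress, while IRE1 splices Xbp1 mRNA into the form that drives chaperone and ER degradation genes. PVH neurons secrete large amounts of peptide hormone and so depend on this machinery.

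Peaks were called by the authors in each library, and the lists held 57682 and 34100 peaks in AAV-GFP replicates 1 and 2 and 23384 and 26612 in AAV-Cre replicates 1 and 2. Depth is unknown, and longer lists hold more weak peaks. Strength is therefore given as the authors' fold enrichment of a peak over background, as its percentile within its own list by −log10 p (0 is the strongest), and, for the 14634 regions with a peak in all 4 libraries, as its percentile among those regions, which makes the ranked set the same in every library. With 2 libraries against 2, the smallest two-sided exact permutation p is 0.333, so no single region can be called by a test, and a difference is described by whether the groups overlap. Fold enrichment and −log10 q were used as deposited, on no common scale between libraries. A lower value after AAV-Cre therefore need not mean a lower rank. A weaker peak in such bulk tissue cannot tell fewer open cells from less opening per cell. As a check of the tissue, 2 of 8 PVH markers (Pou3f2 and Arnt2) had a peak within 1 kb of a start in all 4 libraries, and Oxt, Avp and Trh had none in any. Of 5 neuronal markers, Syt1 and Snap25 had one in all 4, Slc32a1 in 3, Slc17a6 in the controls alone and Rbfox3 in none. Of 9 astrocyte and oligodendrocyte markers, 0 had one in all 4 libraries and 5 had one in some, with Aldh1l1, Olig1 and Mbp open in 3. None of the 4 microglial and 4 endothelial markers had one in any library. Otp, the targeted gene, had weak start peaks in both controls (3.73- and 4.22-fold, percentiles 93.5 and 92.6), none in AAV-Cre replicate 1 and a stronger one in AAV-Cre replicate 2 (5.52-fold, percentile 63.0). Peaks at the Otp start therefore did not separate the groups, and since the floxed part is not stated they do not check the deletion.

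Most of the stress genes had open chromatin at their starts in every library, AAV-GFP and AAV-Cre alike. Of the 10 genes, 8 had a peak within 1 kb of the start in all 4 libraries (Atf4, Ddit3, Xbp1, Chac1, Sesn2, Asns, Hspa5 and Herpud1), against 42.9% of all protein-coding genes. The exceptions, Atf3 and Trib3, had a peak there in both AAV-GFP libraries and in neither AAV-Cre library, a pattern seen at 3.05% of protein-coding genes. By region, 11 of 20 were shared by all 4 libraries (26% of all regions within 10 kb of protein-coding genes), 4 were control-specific, meaning a peak in both AAV-GFP and in no AAV-Cre library (10.5% of all), and 0 were Cre-specific (1.06% of all). Of the other 5, 3 were seen in a single control library, 1 in AAV-Cre replicate 1 alone and 1 in a control and an AAV-Cre library. The count of 4 control-specific regions became 1 when all lists had the same length, 2 when peaks needed a −log10 q of 5 or more, 2 within gene bodies alone and 8 without AAV-GFP replicate 2. The shares over all regions are for the main setting alone, so these counts cannot be set against them. The 11 shared regions had a median width of 741 bp, beside 622 bp over all shared regions, and the control-specific ones 321.5 bp; a region merged from 4 libraries spans more peaks than one merged from 2. The number of the 20 regions with a peak was 18 and 16 in the AAV-GFP libraries and 12 in each AAV-Cre library, and the AAV-GFP lists were also the longer ones. When every list was reduced to its strongest 23384 peaks, the region past Herpud1 alone was control-specific, and at the other 3 control-specific regions the reduction had removed control peaks.

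**Figure D1:**
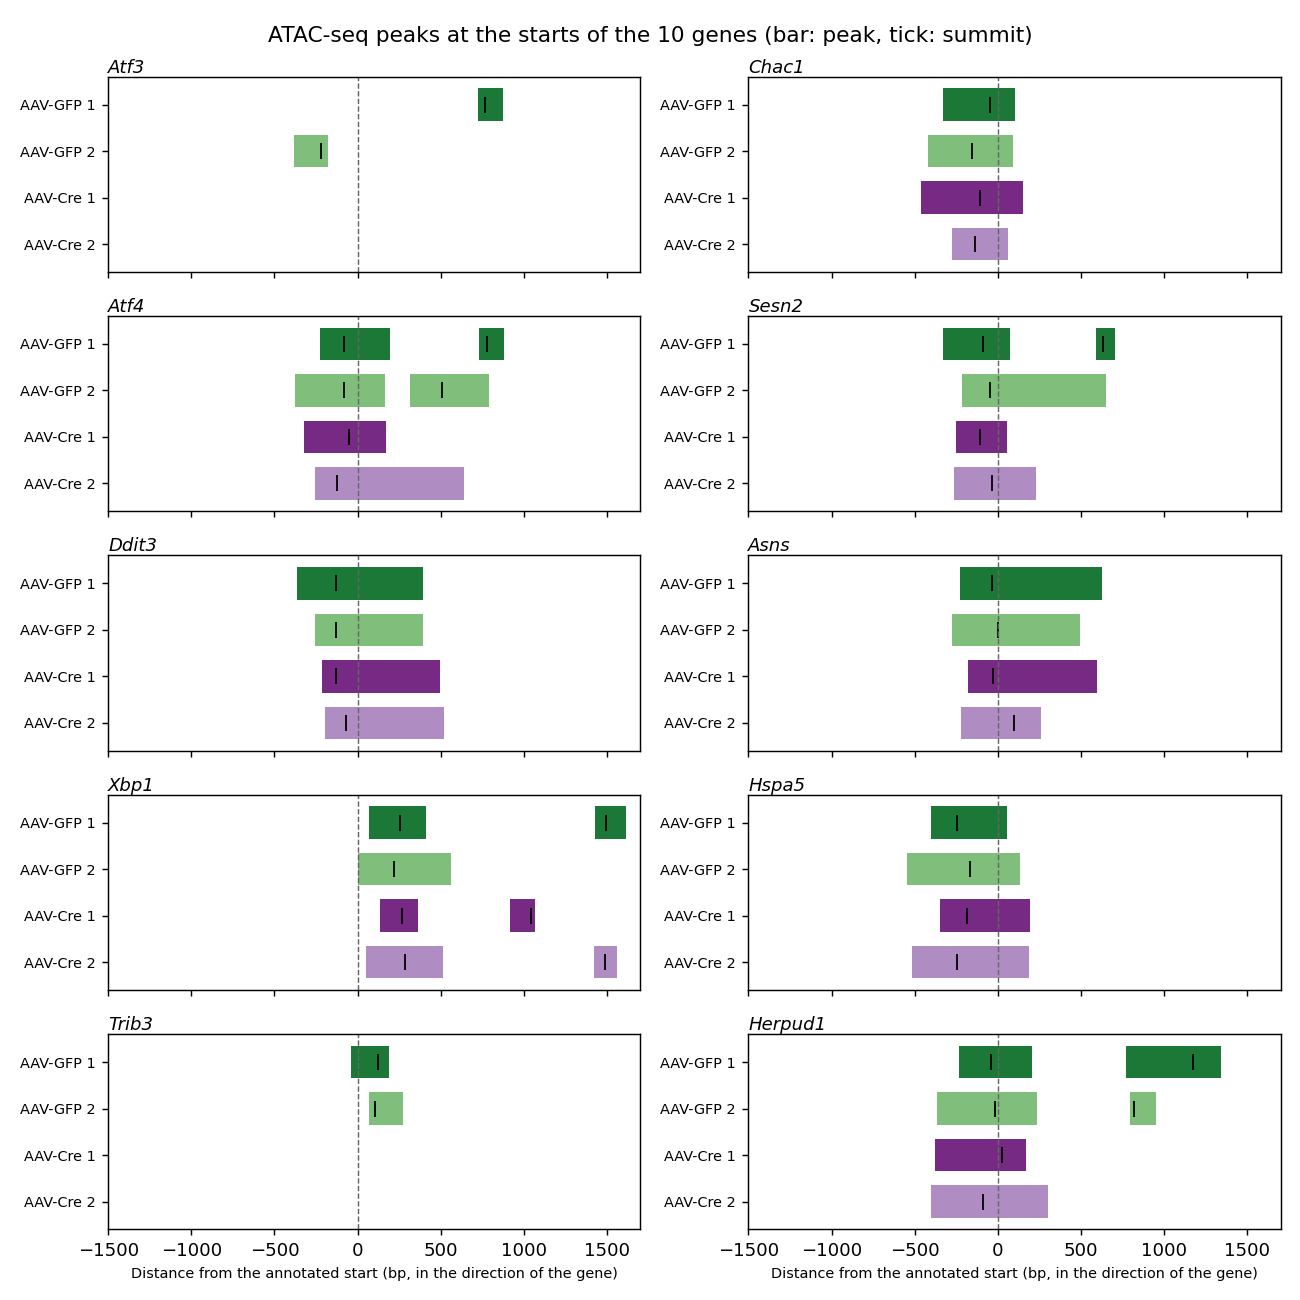
Peaks around the annotated starts of the 10 genes, with distance from the start in bp along the gene on the horizontal axis and 1 row per library. Bars span peaks and ticks mark summits. At 8 genes all 4 libraries have a peak at the start, while Atf3 and Trib3 have peaks in AAV-GFP libraries alone, and those of Atf3 do not overlap each other.

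**Figure D2:**
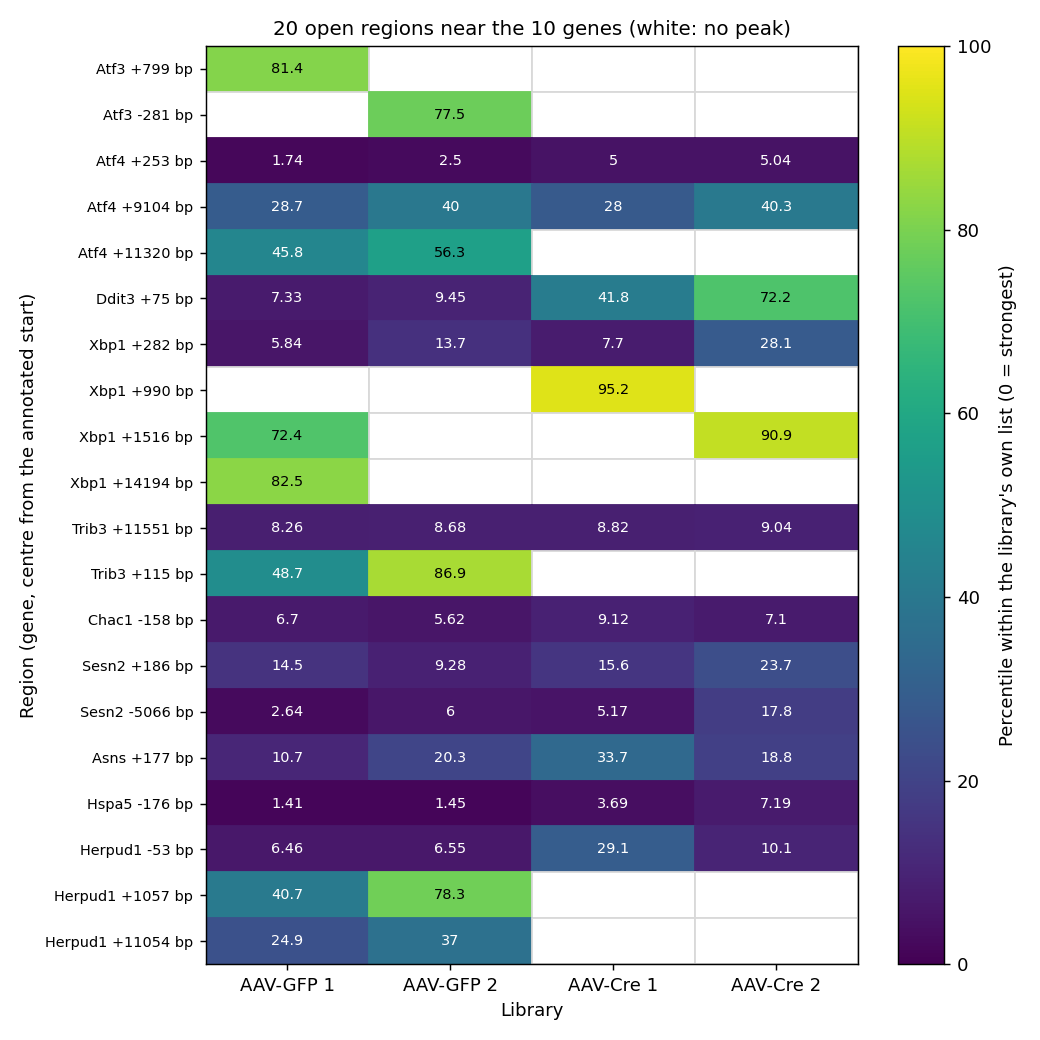
Percentile of each region's strongest peak within its own library list (0 is the strongest), for the 20 regions (rows, named by gene and by the distance of the centre from the start) and the 4 libraries (columns). White cells have no peak. The start of Hspa5 stays between 1.41 and 7.19, while that of Ddit3 goes from 7.33 and 9.45 in AAV-GFP to 41.8 and 72.2 in AAV-Cre libraries.

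Hspa5, which encodes BiP, the main ER chaperone and the brake on the stress sensors, had the strongest start of the 10 in both controls and AAV-Cre replicate 1, and stood behind Atf4 and, narrowly, Chac1 in AAV-Cre replicate 2. On chromosome 2 the region ran from 34771544 to 34772284 over the start at 34772090. Fold enrichment was 14.3 and 16.0 in the AAV-GFP libraries and 12.2 and 9.86 in the AAV-Cre libraries. The peak stood at place 815 and 494 in the control lists and at place 863 and 1914 after AAV-Cre, so within 7.19% of the top of every list. Its summits lay at positions -244, -169, -187 and -248 bp from the start, in the same order of libraries. Among regions shared by all libraries its percentile was 5.43 and 3.36 in controls and 5.87 and 13.0 after AAV-Cre. The groups did not overlap, with AAV-Cre weaker by 5.05 points, but AAV-Cre replicate 1 lay close beside AAV-GFP replicate 1, and the AAV-Cre libraries differed from each other by 7.14 points. The difference was 1.27 points without AAV-Cre replicate 2, and ranked by fold enrichment it was 1.85 points with overlapping groups. The 250 bases before the start were covered by the peak in full in all 4 libraries. They are shown because this strongest start carries the motifs through which ER stress is known to act.

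Hspa5 (GRCm38.p6, chr2:34771840-34772089, plus strand): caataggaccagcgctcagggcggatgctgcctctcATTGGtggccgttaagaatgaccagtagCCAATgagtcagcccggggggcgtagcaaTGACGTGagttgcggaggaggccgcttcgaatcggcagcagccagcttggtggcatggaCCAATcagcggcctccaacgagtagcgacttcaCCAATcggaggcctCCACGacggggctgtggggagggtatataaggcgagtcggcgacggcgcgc

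The capitals mark CCAAT boxes on either strand (ATTGG is the reverse), the motif TGACGTG, to which XBP1 and ATF6 are known to bind, and the CCACG that completes an ER stress response element (ERSE). As searched here, an ERSE is CCAAT and CCACG with 9 bases between them, so it contains a CCAAT box. Other spacings and inexact matches were not searched. The 1 ERSE of this exact spelling in Hspa5 spans positions -65 to -47 from the start, and TGACGTG spans -157 to -151. Of 21263 promoters of protein-coding genes, cut to the same 250 bases and searched on both strands, 0.132% held an ERSE, 1.77% held TGACGTG and 35.4% held CCAAT. Among the 10 genes Hspa5 alone held an ERSE of this spelling or TGACGTG, 6 held CCAAT, and 0 held the cAMP-type element TGACGTCA, which 1.92% of promoters held. Herpud1 had a pair of CCAAT boxes at -52 to -48 and -18 to -14 and no ERSE of this spelling. The first of these boxes, reversed, runs on as ATTGGgccacg, so CCACG lies beside it at a spacing that was not searched. An ER stress element of another form in Herpud1 is therefore not excluded.

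Herpud1, an ER membrane protein that takes part in degrading misfolded proteins, combined a shared start with peaks that only the controls had. At the start, on chromosome 8 from 94386024 to 94386728, fold enrichment was 10.3 and 10.8 in controls and 6.30 and 8.23 after AAV-Cre. Its percentile among shared regions was 24.6, 15.2, 44.1 and 18.2, in the order AAV-GFP 1, AAV-GFP 2, AAV-Cre 1 and AAV-Cre 2. AAV-Cre replicate 1 stood apart, while AAV-Cre replicate 2 lay between the controls, so the groups overlapped. Inside the gene, from 94387202 to 94387770, a control-specific region had folds of 4.74 and 3.69, at percentiles 40.7 and 78.3 of the control lists. Past the far end of the gene, 1949 bp away, another from 94397320 to 94397647 had folds of 7.34 and 6.85 at percentiles 24.9 and 37.0. No annotated gene lay within 1 kb of it. This last region was the strongest of the 4 control-specific ones in both control lists, and it was the only 1 of the 4 still control-specific both with lists of equal length and at −log10 q of at least 5. The authors' deposited pooled lists gave it 7.70-fold enrichment for AAV-GFP, at percentile 47.1, and no peak for AAV-Cre.

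Atf4, the transcription factor whose translation rises when eIF2 is phosphorylated, had a start almost as strong as that of Hspa5. The region on chromosome 15 from 80254810 to 80256065 had folds of 12.7 and 12.2 in controls and 9.29 and 9.76 after AAV-Cre. Its percentile among shared regions was 6.72 and 5.81 against 7.93 and 9.13. The groups did not overlap, and the difference was 2.27 points toward weaker after AAV-Cre. Ranked by fold enrichment in place of −log10 p, the direction turned, with a difference of -0.960 points and overlapping groups, and without AAV-Cre replicate 2 the difference was 1.44 points. Both controls had a further, weaker peak inside the gene, with summits 779 and 506 bp past the start, which AAV-Cre replicate 1 lacked; the wide peak of AAV-Cre replicate 2 reached 641 bp past the start and so part of that in AAV-GFP replicate 2. Of the regions beyond the gene, that from 80264037 to 80264540 lies at the start of the neighbour Rps19bp1 and had percentiles of 76.5 and 73.7 in controls and 42.6 and 63.6 after AAV-Cre, stronger after AAV-Cre by 22.0 points with no overlap. A region 8852 bp past the end of Atf4, from 80266397 to 80266612, was control-specific, with folds of 4.71 and 5.01 and summits within 2 bp of each other, at 11227 and 11225 bp from the start.

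Ddit3, which encodes CHOP, the partner of ATF4 in prolonged stress, showed the largest change of rank among the 10. Its only region, on chromosome 10 from 127290426 to 127291311, covers the start at 127290793. The neighbour Mbd6 lies on the opposite strand, and the 5′ end of its annotated body, at 127290869, falls in the same region, so these peaks cannot be assigned to Ddit3 alone. The AAV-GFP libraries had folds of 7.64 and 8.22 and the AAV-Cre libraries folds of 4.85 and 3.91. The −log10 q was 33.5 and 27.0 against 6.84 and 4.10. Such values also fell where ranks overlapped, as at the Chac1 start, with 35.4 and 36.3 against 18.2 and 20.6. Within their own lists the Ddit3 peaks of controls stood at percentiles 7.33 and 9.45 and those of AAV-Cre libraries at 41.8 and 72.2. The peak was of similar width in all libraries, at 763, 654, 711 and 718 bp. Its summits lay at -130, -130, -128 and -70 bp from the start, the last in AAV-Cre replicate 2. The upstream edge lay at -367 and -258 bp in controls and at -216 and -199 bp after AAV-Cre. The downstream edge lay at 395 bp in both controls and at 494 and 518 bp after AAV-Cre. Both edges thus lay further along the gene after AAV-Cre, with no overlap of the groups.

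Among regions shared by all 4 libraries the Ddit3 start stood at 27.8 and 21.8 in controls and at 60.2 and 89.7 after AAV-Cre. AAV-GFP libraries averaged 24.8 ± 4.24 (SD, n = 2) and AAV-Cre libraries 74.9 ± 20.9 (SD, n = 2), a shift of 50.2 points toward weaker, with an exact permutation p of 0.333, the smallest possible. Libraries of a group lay 5.99 points apart for AAV-GFP and 29.6 for AAV-Cre, both less than the shift. Of 8598 shared regions at protein-coding starts, 0.198% were weaker after AAV-Cre by at least as much with no overlap of the groups. Ddit3 was singled out after these values were seen, as the extreme of the 10. The shift was 35.4 points when ranked by fold enrichment, 51.7 in lists of equal length and 32.7 to 64.4 with a library left out, the lowest when AAV-Cre replicate 2 was dropped. In the authors' deposited pooled lists the enrichment was 8.31-fold for AAV-GFP, at percentile 11.8, and 4.68-fold for AAV-Cre, at percentile 68.1.

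Ddit3 (GRCm38.p6, chr10:127290543-127290792, plus strand): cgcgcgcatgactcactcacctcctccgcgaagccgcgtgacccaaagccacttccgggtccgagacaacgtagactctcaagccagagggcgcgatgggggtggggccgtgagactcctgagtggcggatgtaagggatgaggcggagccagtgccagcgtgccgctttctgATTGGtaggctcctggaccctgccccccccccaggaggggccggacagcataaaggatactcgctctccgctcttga

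This stretch is shown because it holds the summits of all 4 Ddit3 peaks. The capitals mark its 1 CCAAT box, reversed, at -77 to -73; the peaks covered 250 of these bases in each control and 216 and 199 in the AAV-Cre libraries. It held no exact TGATGNAA, the core of the C/EBP-ATF element through which ATF4 is known to act. The box and the bases before it read cgtgccgctttctgATTGG, close to a reversed ERSE, and inexact matches were not searched. Bases further upstream were not searched either. Stress elements of another form or place at Ddit3 are therefore not excluded.

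**Figure D3:**
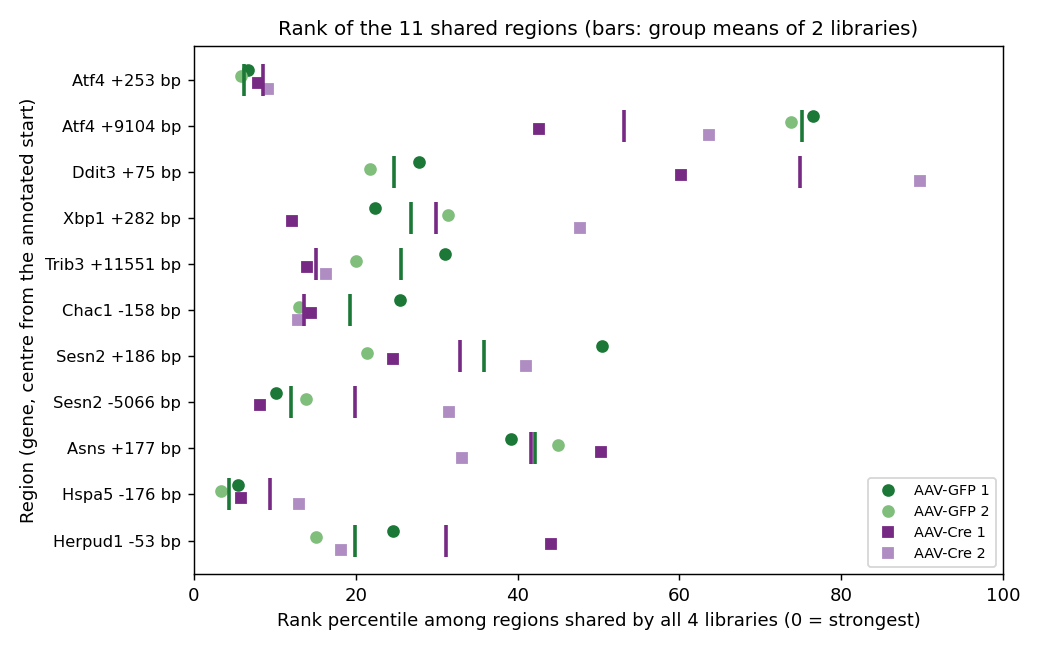
Rank percentile of the 11 shared regions among the 14634 regions with a peak in all 4 libraries (0 is the strongest). Circles are AAV-GFP and squares AAV-Cre libraries, spread vertically for legibility, and bars are means of 2 libraries. Ddit3 stands apart at 27.8 and 21.8 against 60.2 and 89.7, while 8 of the other 10 differ more within a group than between groups.

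**Figure D4:**
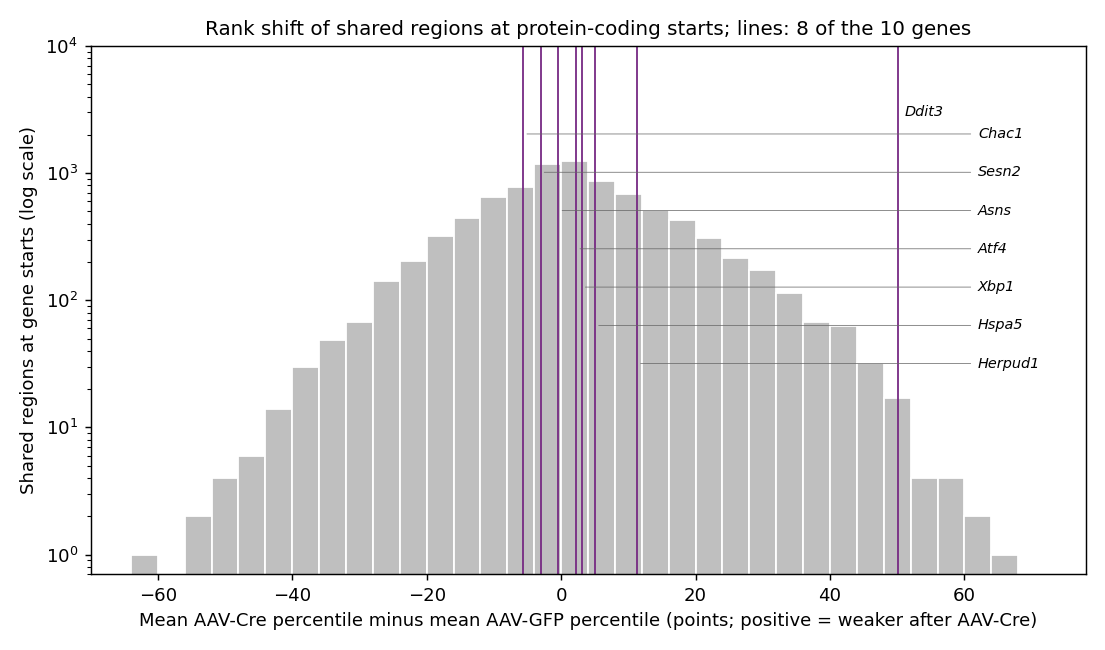
Number of shared regions at protein-coding starts (log scale) by rank shift, the mean AAV-Cre percentile minus the mean AAV-GFP percentile. Lines mark the 8 genes with a shared start. The shift of Ddit3, 50.2 points, lies far in the right tail, and the other 7 lie between -5.62 and 11.3.

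Trib3 encodes a pseudokinase that CHOP and ATF4 induce and that dampens their activity. It had called peaks at its start in controls alone. The region on chromosome 2 from 152343788 to 152344102 had folds of 5.34 and 4.27 in the AAV-GFP libraries, with summits 124 and 107 bp past the start, and no peak in either AAV-Cre library. The peaks were modest, at percentiles 48.7 and 86.9 of their lists with a −log10 q of 6.85 and 3.21. Reducing the lists to equal length removed both control peaks, and a −log10 q of at least 5 removed that of AAV-GFP replicate 2, so those settings say nothing of the AAV-Cre libraries here. The authors' deposited pooled lists held a peak of 5.38-fold enrichment for AAV-GFP and none for AAV-Cre. That peak stood at place 23846 of 28592, and the AAV-Cre pooled list held 16614 peaks in all. The pooled lists thus do not tell a closed start from a shorter list. At the far side, 4532 bp from Trib3, the start of the neighbour Rbck1 was open in all 4 libraries, with percentiles of 31.0 and 20.1 in controls and 14.0 and 16.3 after AAV-Cre. That neighbour was thus stronger after AAV-Cre by 10.4 points with no overlap. The Trib3 start has no AAV-Cre value, so no shift was measured there to set beside it.

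Atf3, a stress-induced repressor that ATF4 and CHOP switch on, had no peak that libraries shared. On chromosome 1, AAV-GFP replicate 1 had a peak from 191182459 to 191182609, inside the gene with a summit 766 bp past the start (fold 4.31, percentile 81.4). AAV-GFP replicate 2 had one from 191183511 to 191183718, with a summit at -221 bp (fold 4.80, percentile 77.5). These do not overlap, the AAV-Cre libraries had none, and the authors' deposited group lists held none in either pool. The start therefore counts as control-specific when any peak within 1 kb counts, and not when the same region must be open in both controls.

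The 250 bases before Atf3 and Trib3 are shown as the starts whose peaks were limited to controls.

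Atf3 (GRCm38.p6, chr1:191183334-191183583, minus strand): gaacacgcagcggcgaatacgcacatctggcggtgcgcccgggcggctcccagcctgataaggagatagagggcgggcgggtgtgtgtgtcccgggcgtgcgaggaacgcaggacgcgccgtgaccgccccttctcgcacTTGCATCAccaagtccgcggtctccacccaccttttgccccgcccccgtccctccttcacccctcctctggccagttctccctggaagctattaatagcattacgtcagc

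Trib3 (GRCm38.p6, chr2:152344061-152344310, minus strand): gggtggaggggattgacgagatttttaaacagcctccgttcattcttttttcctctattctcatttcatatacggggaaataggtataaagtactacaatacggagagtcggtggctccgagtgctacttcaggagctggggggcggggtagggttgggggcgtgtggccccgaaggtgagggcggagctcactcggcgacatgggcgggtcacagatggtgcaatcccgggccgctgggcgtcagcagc

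The capitals in Atf3 mark TGATGNAA, read on the reverse strand, at -110 to -103, and the Trib3 stretch held none of the motifs searched. TGATGNAA was found in 4 of the 10 genes, Atf3, Chac1, Asns and Herpud1, against 3.18% of promoters. Of these 4, Chac1, Asns and Herpud1 had start peaks in all 4 libraries and Atf3 had none that libraries shared. At Atf3 the peaks covered 73 of the 250 bases in AAV-GFP replicate 2 and 0 in the other libraries, and at Trib3 42 in AAV-GFP replicate 1 and 0 in the others.

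Xbp1, the factor that IRE1 activates by splicing, was open in all libraries just past its annotated start. The region on chromosome 11 from 5520644 to 5521203 had folds of 10.8 and 8.95 in controls and 9.87 and 6.81 after AAV-Cre, with summits 257, 216, 266 and 284 bp past the start. No library's peak covered any of the 250 bases before the start, unlike Hspa5, Chac1 and Atf4. Its percentile among shared regions was 22.3 and 31.4 in controls and 12.2 and 47.7 after AAV-Cre, so the AAV-Cre libraries lay on both sides of the controls. A weak region from 5522060 to 5522254, inside the gene, had a peak of 3.52-fold in the first control library and of 3.94-fold in AAV-Cre replicate 2. Single-library peaks lay nearer the start in AAV-Cre replicate 1 (3.59, percentile 95.2) and in the neighbour Ccdc117 in AAV-GFP replicate 1 (4.18, percentile 82.5).

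At the starts of the effector genes the ranks of the groups overlapped. Chac1, a glutathione-degrading enzyme at the end of the ATF4 and CHOP path, had 1 region, on chromosome 2 from 119350778 to 119351391, with folds of 10.8 and 12.7 in controls and 9.49 and 9.93 after AAV-Cre. Its percentile among shared regions was 25.5 and 13.0 against 14.5 and 12.9. Ranked by fold, the Chac1 shift was -7.79 points, toward stronger with overlapping groups, although both AAV-Cre folds were lower. Asns, which makes asparagine, had folds of 11.1, 8.81, 6.66 and 8.37 in the order AAV-GFP 1, AAV-GFP 2, AAV-Cre 1 and AAV-Cre 2, and percentiles of 39.2, 45.0, 50.3 and 33.1. The AAV-Cre values enclosed the control values, and the group means differed by 0.393 points. Sesn2, a stress-induced sensor of leucine that restrains mTORC1, had folds of 7.75, 9.90, 7.75 and 6.81 at its start and percentiles of 50.4, 21.4, 24.6 and 41.1. Here the AAV-Cre values lay between those of the controls. Upstream of Sesn2, 4738 bp away on chromosome 4, a region from 132515194 to 132515850 was stronger than the start of the gene, with folds of 14.2, 11.8, 11.1 and 7.50. The transfer RNA gene n-TAagc8 lies within 1 kb of it. Its percentile was 10.2 and 13.9 in controls and 8.21 and 31.6 after AAV-Cre, which overlap.

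Across the 11 shared regions, 3 ranked weaker after AAV-Cre with no overlap of the groups (the starts of Ddit3, Hspa5 and Atf4), against 20.2% of shared regions near protein-coding genes, and 2 ranked stronger (at Rps19bp1 and Rbck1), against 18.6%. Ranked by fold enrichment, Ddit3 alone was weaker; leaving out AAV-GFP replicate 1 or either AAV-Cre library gave 5 weaker, and leaving out AAV-GFP replicate 2 or either AAV-Cre library gave 4 stronger. The shares given are for the main setting alone, where the remaining 6 overlapped. At starts alone, 3 of 8 were weaker and 0 stronger, against 22.7% and 15.9% of shared regions at protein-coding starts. The median shift of the 11 was 2.27 points toward weaker, beside 0.200 over all shared regions near protein-coding genes. The shifts ran from -22.0, at Rps19bp1, to 50.2, at Ddit3.

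Most starts of the wider pathway were open in every library as well. Of 61 further genes listed by role, 50 (82.0%) had a start peak in all 4 libraries (42.9% of all protein-coding genes), 0 were control-specific (3.05%), 0 were Cre-specific (0.064%) and 4 had no start peak in any library (40.9%). The control-specific count was 1 at a −log10 q of at least 5, 5 in the authors' pooled lists, 3 without AAV-GFP replicate 2 and 2 without either AAV-Cre library. The shares over all protein-coding genes are for the main setting alone. All 15 ER chaperone genes, all 8 ER degradation genes and all 3 genes of eIF2 and its phosphatase had start peaks in all 4. The 4 without any were the ATF4 target genes Nupr1, Stc2, Gdf15 and Fgf21, the last 2 of which encode stress hormones. Another 7 had peaks in some libraries, among them the eIF2 kinase gene Eif2ak2 in AAV-GFP replicate 1 alone. Nfe2l2, an oxidative stress factor, had a start peak in all but AAV-Cre replicate 1, though a region that both controls share at its start was control-specific.

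Among genes with a start peak in all 4 libraries, strength differed widely within each role. By mean percentile over the libraries, the strongest of ER degradation, chaperones, eIF2 dephosphorylation and sensors were, in turn, Sel1l (0.754), a scaffold of ER degradation, the ER chaperone Hsp90b1 (0.870), Ppp1r15b (1.70), a constant regulator of eIF2 dephosphorylation, and Eif2ak3 (2.45), which encodes PERK. Atf6b (4.40), a relative of ATF6, and Ddit4 (5.83), an inhibitor of mTORC1, led the factors and the ATF4 targets. The weakest of these genes in each role were Ppp1r15a (75.4), the stress-induced counterpart of Ppp1r15b, Atf6 (75.1), Ero1a (32.2), Cth (30.6), Syvn1 (21.9) and Cebpg (16.1). For Atf6, Ppp1r15b and Cth no start was annotated, so peaks near either gene end counted. The same holds for Wars, named below, and for the markers Snap25, Crh, Olig1 and Mbp. Peaks at these genes may therefore lie at the far end of the gene. At Atf6 no single region had a peak in all 4 libraries, so its value may mix different regions.

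Of 49 pathway genes with a shared region at the start, 15 ranked weaker after AAV-Cre with no overlap (22.7% of all shared start regions did) and 11 ranked stronger (15.9%), and the median shift was 0.263 points, beside 1.06 over all shared start regions. The larger shifts pointed mostly to weaker ranks, here and over all shared start regions. Of the 49 genes, 8 were weaker by at least 20 points with no overlap and 1 was stronger. Over all shared start regions the shares were 9.97% and 4.93%. This bound of 20 points was chosen after the values were seen. The 8 were Eif2ak1, a haem-regulated eIF2 kinase, Cebpg, a partner of ATF4, the ATF4 targets Mthfd2, Cth and Wars, and the ER genes Canx, Pdia6 and Ero1a. Pdia6, a protein disulfide isomerase, went from 13.5 and 12.3 in controls to 73.5 and 36.0 after AAV-Cre, and Mthfd2, of mitochondrial folate metabolism, from 21.6 and 26.8 to 60.4 and 68.9. Eif2ak1 went from 30.6 and 26.8 to 75.7 and 61.6. For Canx, a lectin chaperone, AAV-Cre replicate 1 alone was far off, at 12.2 and 8.75 against 70.9 and 13.7. Iars and Vldlr also passed 20 points, at 25.1 and -20.5, but with overlapping groups. The 1 gene stronger without overlap was Pck2, a mitochondrial enzyme of gluconeogenesis, at 64.7 and 31.6 in controls and 26.6 and 23.8 after AAV-Cre. Ppp1r15a, weak in controls at 98.9 and 99.2, stood at 80.0 and 86.6 after AAV-Cre.

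**Figure D5:**
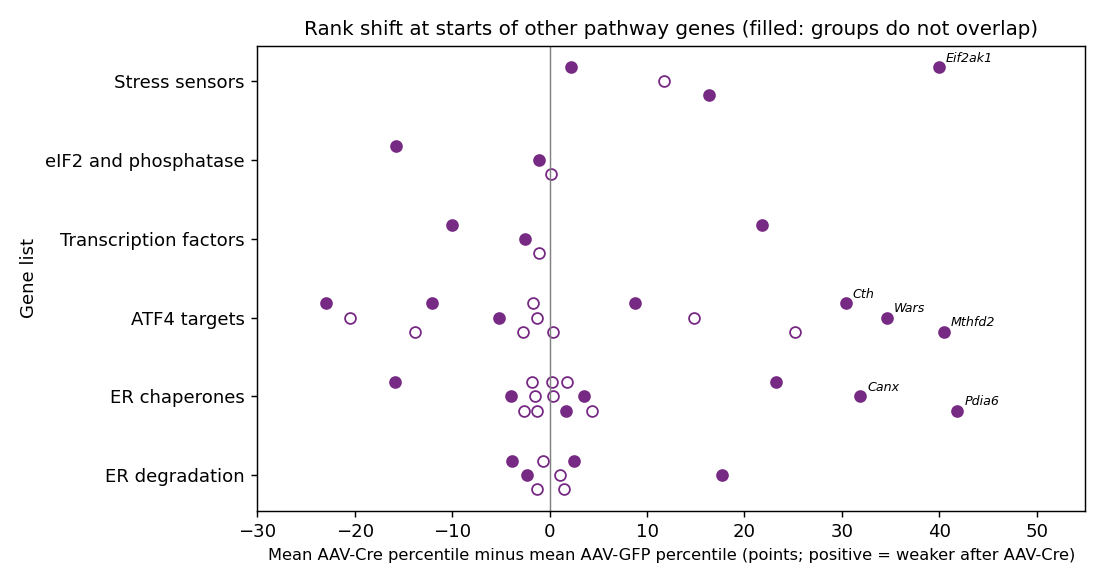
Rank shift (mean AAV-Cre percentile minus mean AAV-GFP percentile, in points) at the starts of the 49 further pathway genes with a shared region, by role. Filled points are genes whose groups do not overlap. Shifts of 20 points or more lie mostly to the right, with 8 filled points there, 1 filled to the left and 1 open point on each side.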

How the data were processed

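The build was mm10 and the tools were MACS2, Bowtie2, Trim Galore and FastQC, according to the submitters' processing notes, which name no version or threshold. The authors deposited 4 library and 2 group peak lists with fold enrichment (a ratio to background) and −log10 p and q for each peak. These are the authors' values. The lowest −log10 q per library list lay between 1.30 and 1.31. No read counts were used, so depth is unknown. The group lists were called on pools, per the peak names, and held 28592 peaks for AAV-GFP and 16614 for AAV-Cre.

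Library peaks sharing at least 1 bp were merged into regions, and peaks within 10 kb of a gene body were collected (Python 3.11.15). Starts, strands and promoter sequences came from RefSeq tables of GRCm38.p6, the build mm10 corresponds to. All 10 genes matched, with 1 start each, and so did all 61 other pathway and 30 marker genes. Of 21887 protein-coding genes, 17492 had an annotated start; for the others both gene ends were used. A start window reached 1 kb to each side. Within a region the strongest peak by −log10 p was ranked. Region calls were tested on simulated lists. Genes named were all members, pathway genes with group-specific or absent start peaks, and the strongest and weakest start of each list; the rest were chosen after seeing values. The members and lists were chosen with earlier results of these data known.

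Alternatives were lists of equal length (23384 peaks), −log10 q of at least 5, the group lists, another overlap, window or ranking value, and each library left out.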

Additional observations from a re-analysis of the deposited data

How the results depend on the processing

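Depth is unknown, 2 libraries a group allow no test to make a call, and counts moved with list length. Against 4 control-specific member regions, equal lengths gave 1, −log10 q of at least 5 gave 2, gene bodies alone gave 2, and dropping single libraries 4 to 8 (8 without AAV-GFP replicate 2). At equal length both Trib3 peaks, the 2 peaks inside Herpud1 and 1 control peak beyond Atf4 were themselves removed. Against 0 Cre-specific regions, 0 to 1 appeared with a library left out (1 without AAV-Cre replicate 2). Against 3 shared regions ranked weaker, ranking by fold gave 1 and leaving out a library 3 to 5; against 2 ranked stronger, gene bodies alone gave 0 and leaving out a library 2 to 4. Control-specific pathway starts, 0, became 1 at the stricter q, 5 with the group lists, 1 when read by merged region (added after the data were seen) and 0 to 3 with a library left out (3 without AAV-GFP replicate 2, 2 without either AAV-Cre library). Ranked by fold, the shift turned at Atf4 (-0.960), Xbp1 (-3.97) and Asns (2.58). Among the shared member starts, Ddit3 alone then had groups that did not overlap. With a library left out, the shift took both signs at 5 starts whose groups overlapped: Xbp1 (-12.8 to 17.7), Chac1 (-11.2 to 0.627), Sesn2 (-16.5 to 11.3), Asns (-7.54 to 7.78) and Herpud1 (-1.36 to 21.8), so no direction can be read there. Ddit3 and Hspa5 kept their sign in every alternative that gave a value; at −log10 q of at least 5 Ddit3 gave none. Regions shared by all libraries and starts open in all libraries stayed within 1.5 times in every alternative run. A pattern asks less of fewer libraries. Shares over all regions were given for the main setting alone, so the counts at other settings cannot be set against them. Other causes were not tested.

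Both groups carry the numbers 1 and 2. With the replicate block, comparing same-numbered libraries, 4 regions were control-specific and 11 shared, the same by construction; by rank, 4 were weaker and 3 stronger in both pairs, against 3 and 2. Nothing in the labels says that the numbers pair the libraries.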
